A study of Homo sapiens with 6 samples.

Results

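The genes described here are the D and E cyclins, the kinases they activate and a pair of kinase inhibitors: CCND1, CCND2, CCND3, CCNE1, CCNE2, CDK2, CDK4, CDK6, CDKN1B and CDKN2C. They were chosen by symbol, and all 10 are among the 21850 genes of the count table. RNA-seq was performed in MM.1S, a human multiple myeloma cell line, 3 days after lentiviral infection with a hairpin against PRKCN (shPRKCN, 3 libraries) or with a scramble hairpin (shNT, 3 libraries). The labels give the genotype as WT for shNT and as PRKCN knockdown for shPRKCN and name no drug or other allele. Both groups carry a hairpin vector with a GFP reporter, and the methods describe sorting of GFP-positive cells after transduction without saying so for these libraries. A single cell line and 1 hairpin against PRKCN were profiled, so neither another line nor another hairpin is compared here. The labels do not say that the libraries of a group came from separate cultures, so every p-value measures the spread between these libraries, which may be technical.

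In early G1, growth signals raise D cyclins, which bind and activate CDK4 and CDK6 and start the phosphorylation of the retinoblastoma protein RB. Phosphorylated RB releases E2F factors, which switch on the E cyclins, and cyclin E with CDK2 completes RB phosphorylation and opens S phase. CDKN1B (p27) restrains cyclin E with CDK2, whereas CDKN2C (p18) binds CDK4 and CDK6 and keeps them from D cyclins. Raised expression of a D cyclin is an early and shared feature of myeloma, and MM.1S carries the translocation that places MAF, an activator of CCND2 transcription, under immunoglobulin control.

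Total counts ran from 35625564 to 37730003 per library, so a count of 3, taken as the floor, equals 0.079 to 0.0849 CPM. CPM (counts-per-million) give counts relative to library size, here scaled with the trimmed mean of M values (TMM). Of all genes, 13971 passed the filter on low counts and were tested. A gene is said to have risen or fallen at a Benjamini-Hochberg adjusted p under 0.05 in the quasi-likelihood test of edgeR, and to pass both limits when its log2 fold change was also beyond 0.58. PRKD3, the symbol under which PRKCN is listed, had 1272, 1298 and 1216 CPM under shNT and 535.0, 490.9 and 526.5 CPM under shPRKCN. The groups were far apart, and PRKD3 fell by 1.29 on the log2 scale (SE 0.034, adjusted p = 8.2e-43). Of the 8 plasma cell markers checked, SDC1, the gene of CD138, had 896 and 1017 CPM on average and XBP1 had 913 and 375 CPM in shNT and shPRKCN, while the B cell genes MS4A1 and PAX5 summed to at most 0.267 CPM in any library. Of the T cell markers, CD3D and CD3G had at most 1 count in a library, but CD3E had 10.9 ± 0.493 CPM in shNT and 28.8 ± 2.03 CPM in shPRKCN (SD, n = 3). The monocyte markers CD14, LYZ and CSF1R summed to at most 0.299 CPM in any library and the 3 epithelial markers to at most 1.98 CPM.

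Depletion of PRKCN came with lower transcript levels of all 3 D cyclins, of CCNE2 and of CDK2, with smaller decreases of CDK6 and CDKN1B and with a slight rise of CDK4. Of the 10 genes, 9 were tested, and CDKN2C was too low to test. Of the 9, 5 fell past both limits, against 10.6% of all tested genes, and 0 rose past both limits, against 6.15% of all tested genes. By the adjusted p alone, 8 of the 9 were lower, against 27.8% of all tested genes, and 1 was higher, against 26.5%. The 8 include CCNE1, whose adjusted p of 0.038 did not hold under several alternatives. In 7 of the 9 every shPRKCN library lay below every shNT library, an arrangement shown by 29.8% of all tested genes, in 1 every shPRKCN library lay above, as in 29.0% of them, and in CCNE1 the groups overlapped. The median log2 fold change was −0.65 over the 9 genes and 0.0012 over all tested genes. In these bulk libraries, fewer cells of a kind or cycle phase and less RNA per cell cannot be told apart.

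**Figure D1:**
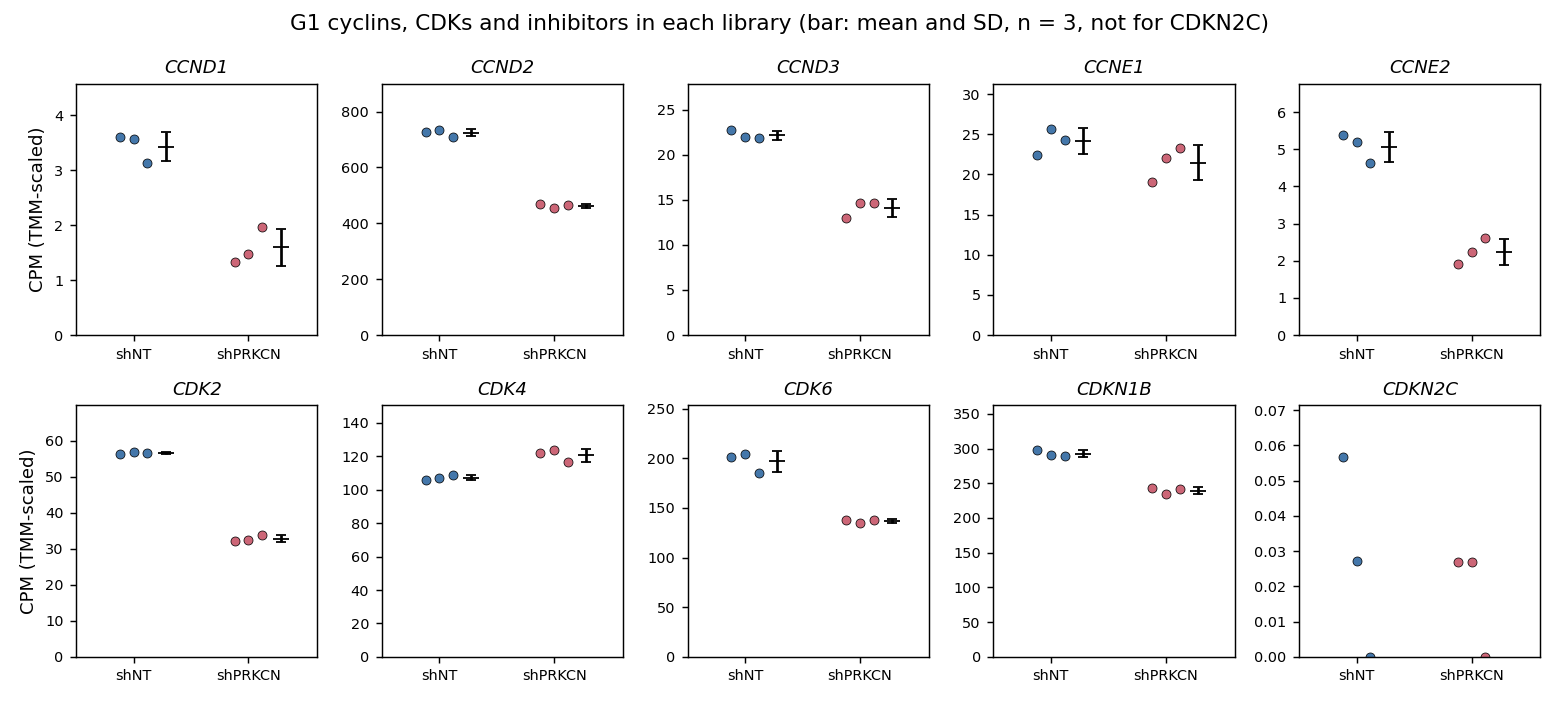
CPM (TMM-scaled) of each of the 10 genes in the 3 shNT (blue) and 3 shPRKCN (red) libraries, each panel with its own axis from 0; points are libraries and bars give the mean and SD, except for CDKN2C, whose values rest on at most 2 counts. The groups overlap in CCNE1 and CDKN2C, CDK4 is higher in every shPRKCN library, and the other 7 genes are lower in every shPRKCN library.

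By the RefSeq annotation of GRCh38.p14, the build named in the labels, 4 of the 10 genes lie on chromosome 12: CCND2 at chr12:4273762-4305353, CDKN1B at chr12:12717368-12722369, CDK2 at chr12:55966830-55972789 and CDK4 at chr12:57747727-57752310. The other D cyclin genes are CCND1 at chr11:69641156-69654474 and CCND3 at chr6:41934933-42050035. CCNE1 lies at chr19:29811991-29824312, CCNE2 at chr8:94880224-94896693, CDK6 at chr7:92604921-92836573 and CDKN2C at chr1:50960745-50974634. Reads were assigned to whole genes, so no isoform is distinguished. The strandedness of the counting is not given in the sources used here, so reads of genes that overlap one of the 10 cannot be told apart from its own.

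CCND2 was by far the leading D cyclin, as measured per gene length in FPKM. FPKM divides the counts by the library total and the length of the gene, without the TMM scaling used for CPM. Its CPM were 725.6, 734.7 and 710.4 under shNT and 468.5, 453.9 and 465.1 under shPRKCN. The shPRKCN libraries were close to each other and well below the shNT libraries. CCND2 fell by 0.65 on the log2 scale (SE 0.033, 95% interval −0.71 to −0.58, adjusted p = 2.2e-27), which left 63.9% of its shNT level. This interval ends at the fold limit, and CCND2 was not called when the change was tested against 0.58 itself (adjusted p = 0.0699 with glmTreat). The antisense gene CCND2-AS1, which overlaps the start of CCND2, held 4 to 15 counts per library, against 16878 to 27016 for CCND2.

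CCND3, the D cyclin that normal lymphoid cells use widely, was expressed at a much lower level. Its CPM were 22.7, 21.9 and 21.8 under shNT and 13.0, 14.7 and 14.6 under shPRKCN. The groups did not overlap, and CCND3 fell by 0.65 (SE 0.077, 95% interval −0.81 to −0.50, adjusted p = 2.87e-11), to 63.6% of its shNT level. Its interval reaches above the fold limit on the log2 scale, and its adjusted p against a change of 0.58 was 0.451 with glmTreat.

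CCND1, the D cyclin raised in myelomas with the translocation t(11;14) and not in those with MAF, was close to the bottom of the range. It had 127, 131 and 117 counts under shNT and 50, 55 and 75 counts under shPRKCN, or 3.60, 3.56 and 3.12 CPM against 1.34, 1.48 and 1.97 CPM. Every shPRKCN library was lower, with the third nearest to the shNT libraries. CCND1 fell by 1.10 (SE 0.206, 95% interval −1.51 to −0.69, adjusted p = 5.54e-06), to 46.7% of its shNT level. With so few counts the fold size depended on the scale: it was −0.39, under the fold limit, on log2(FPKM + 1) with limma (adjusted p = 4.45e-04).

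Summed per gene length, the 3 D cyclins had 118 ± 2.10 FPKM in shNT and 76.6 ± 1.82 FPKM in shPRKCN (SD, n = 3), a level of 64.7%. CCND2 made up 93.4% ± 0.146 of this sum in shNT and 93.6% ± 0.511 in shPRKCN, with overlapping libraries (two-sided exact permutation test, p = 0.8). The share of CCND3 was 5.95% and 5.93% (exact permutation p = 1). The share of CCND1 was 0.677% ± 0.042 in shNT and 0.495% ± 0.101 in shPRKCN, without overlap, at an exact permutation p of 0.1, the smallest that 3 against 3 libraries allow. The D cyclin sum was therefore lower in shPRKCN with nearly the same makeup. The log2 ratio of CCND2 to CCND3 within each library was 5.03 ± 0.036 in shNT and 5.04 ± 0.119 in shPRKCN, a difference of 0.0099 (exact permutation p = 1). Leaving out 1 library at a time moved this difference between −0.06 and 0.05. A p of this size does not show that CCND2 and CCND3 changed alike.

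**Figure D2:**
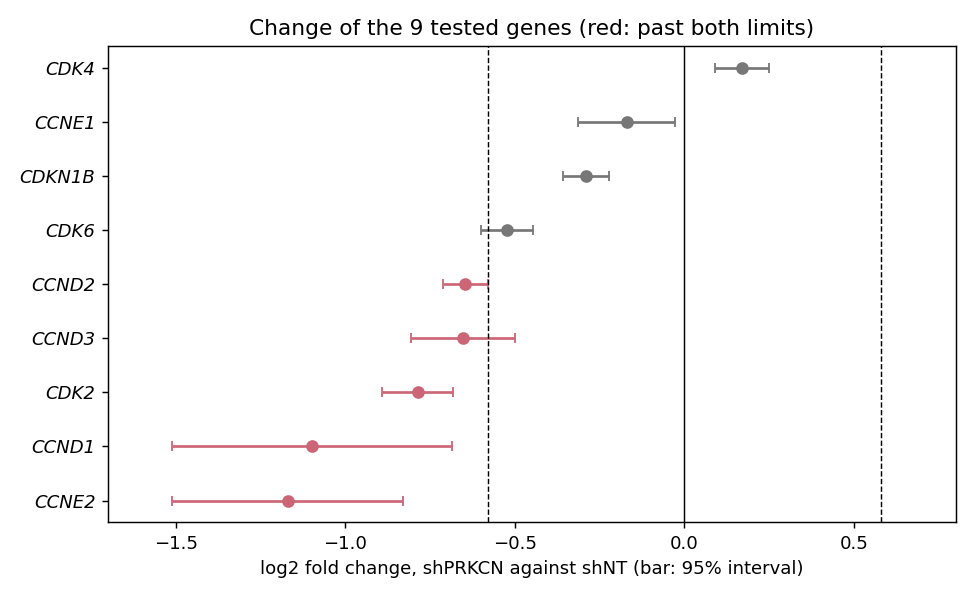
Log2 fold change of shPRKCN against shNT for the 9 tested genes (points) with 95% intervals (bars); dashed lines mark the fold limit of 0.58 in each direction, and red points passed both limits. CCNE2 and CCND1 have the lowest values and the widest intervals, CDK6 lies just inside the limit, and CDK4 alone is above 0.

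CDK4 and CDK6, the partners of the D cyclins, moved in opposite directions. CDK4 had 106.1, 107.2 and 108.6 CPM under shNT and 122.0, 123.6 and 116.4 CPM under shPRKCN. Every shPRKCN library was above every shNT library. CDK4 rose by 0.17 on the log2 scale (SE 0.040, 95% interval 0.09 to 0.25, adjusted p = 2.25e-04), to 112% of its shNT level and well under the fold limit. TSPAN31, a tetraspanin gene whose annotated span overlaps CDK4, was also higher in every shPRKCN library, with 42.6 ± 0.904 and 49.4 ± 1.88 CPM (SD, n = 3) and a log2 fold change of 0.21 (adjusted p = 3.31e-04). How many reads the pair shares was not tested.

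CDK6 had 201.1, 204.5 and 184.6 CPM under shNT and 138.3, 134.4 and 137.8 CPM under shPRKCN. All shPRKCN libraries were lower, and the third shNT library stood nearest to them. CDK6 fell by 0.52 (SE 0.038, 95% interval −0.60 to −0.45, adjusted p = 2.22e-19), to 69.6% of its shNT level, just inside the fold limit. Leaving out 1 library at a time gave −0.57 to −0.49, and CDK6 stayed inside the limit each time. The overlapping loci LOC112268009 and CDK6-AS1 held 1 to 24 and 0 to 1 counts per library, against 4998 to 7519 for CDK6.

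The difference between the kinases was tested as their log2 ratio within each library. CDK6 to CDK4 gave 0.92, 0.93 and 0.77 under shNT and 0.18, 0.12 and 0.24 under shPRKCN. The groups were apart, with a difference of −0.69, so the ratio was 0.619 times that in shNT (two-sided exact permutation p = 0.1, adjusted p = 0.15 over the 3 ratios computed, permutation test). This p is the smallest the design allows. CDK4 made up 77.9% ± 1.11 of the summed FPKM of the 2 kinases in shNT and 85.0% ± 0.541 in shPRKCN (SD, n = 3). The sum of both, in which CDK4 weighs more, was 73.4 ± 0.641 FPKM in shNT and 76.6 ± 1.53 FPKM in shPRKCN. This is 104% of the shNT level. The groups were narrowly apart, with 74.1 FPKM in the second shNT library and 74.8 FPKM in the third shPRKCN library. FPKM is not TMM-scaled, and whether the groups stay apart with that scaling was not tested.

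The bases before the annotated starts of CDK4 and CDK6 are shown because the kinases moved apart and because the E-box CACGTG, the core motif bound by MYC with MAX, is a known feature of the CDK4 promoter. The motif reads the same on both strands, and each match is in capitals. Both stretches are the 250 bases upstream of the start, 5′ to 3′ on the minus strand that carries the gene, from RefSeq on GRCh38.p14, at chr12:57752311-57752560 for CDK4 and chr7:92836574-92836823 for CDK6.
CDK4: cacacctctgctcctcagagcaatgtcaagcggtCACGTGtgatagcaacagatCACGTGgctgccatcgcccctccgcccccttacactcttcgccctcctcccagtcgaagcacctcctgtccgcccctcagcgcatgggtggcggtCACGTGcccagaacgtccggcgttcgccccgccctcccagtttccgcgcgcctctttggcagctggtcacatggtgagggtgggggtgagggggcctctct
CDK6: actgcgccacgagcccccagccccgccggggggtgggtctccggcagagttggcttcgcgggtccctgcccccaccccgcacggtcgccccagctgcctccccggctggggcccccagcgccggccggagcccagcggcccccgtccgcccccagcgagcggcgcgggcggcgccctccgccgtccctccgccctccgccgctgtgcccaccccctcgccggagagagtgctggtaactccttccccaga
The CDK4 window holds 3 matches, whose first bases lie at −216, −196 and −101 from the start, and the CDK6 window holds 0. Of 34943 RefSeq windows of this length, 6.32% held at least 1 match and 0.0801% held at least 3. Promoter entries were matched for 6 of the 10 genes, CCND3, CCNE1, CDK4, CDK6, CDKN1B and CDKN2C, and besides CDK4 only CDKN2C had a match in any of its windows. MYC itself had 547 ± 7.77 CPM in shNT and 594 ± 11.1 CPM in shPRKCN (SD, n = 3), a log2 fold change of 0.12 (adjusted p = 0.00136 with edgeR). The study reports lower c-MYC protein after PRKCN knockdown in MM.1S and places that change after transcription. The transcript value therefore does not stand for the protein. A match is a string of letters and not a measured binding site, and binding was not measured here.

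**Figure D3:**
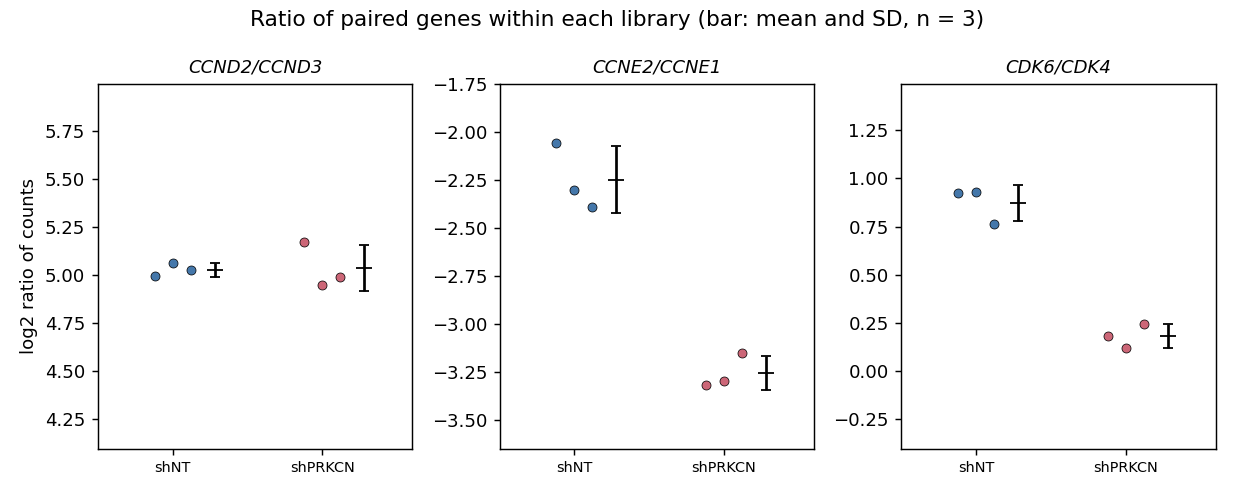
Log2 ratio of counts within each library for CCND2 to CCND3, CCNE2 to CCNE1 and CDK6 to CDK4, in shNT (blue) and shPRKCN (red); points are libraries, bars the mean and SD, and every panel spans the same number of log2 units. The first ratio overlaps between the groups at about 5.03, and the other 2 are lower in all 3 shPRKCN libraries.

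CDK2, the partner of the E cyclins, changed more than CDK4 or CDK6 in the fitted values. It had 56.4, 56.9 and 56.6 CPM under shNT and 32.0, 32.5 and 33.9 CPM under shPRKCN. Within each group the libraries were nearly equal, and the groups were far apart. CDK2 fell by 0.79 (SE 0.052, 95% interval −0.89 to −0.68, adjusted p = 1.69e-21), to 58.0% of its shNT level, and it passed both limits in every alternative tried. Its whole interval lies beyond the fold limit, as do those of CCND1 and CCNE2.

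The E cyclins were expressed unequally and differed in size of change. CCNE1, the more abundant per length, had 22.4, 25.6 and 24.3 CPM under shNT and 19.0, 22.0 and 23.3 CPM under shPRKCN. The groups overlapped. Its log2 fold change was −0.17 (SE 0.071, 95% interval −0.31 to −0.03, adjusted p = 0.038), and this side of the p limit was not stable: the adjusted p was 0.119 with DESeq2, 0.0512 with upper-quartile and 0.0783 with library-size scaling, 0.35 without the first shPRKCN library and 0.221 without the second shNT library, within a range of 0.0164 to 0.35 over the alternatives other than glmTreat. No firm direction is given for CCNE1.

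CCNE2, the less abundant E cyclin, had 190, 191 and 173 counts under shNT and 71, 83 and 99 counts under shPRKCN, or 5.38, 5.19 and 4.62 CPM against 1.90, 2.23 and 2.61 CPM. All shPRKCN libraries were lower. CCNE2 fell by 1.17 (SE 0.171, 95% interval −1.51 to −0.83, adjusted p = 1.92e-08), to 44.4% of its shNT level, the largest fitted decrease of the 9 genes, with an interval that overlaps those of CCND1 and CDK2. On log2(FPKM + 1) with limma, which understates low genes, it was −0.54 and under the fold limit (adjusted p = 1.05e-04). The genes whose spans overlap CCNE2 had log2 fold changes of 0.07 for INTS8 (adjusted p = 0.328, edgeR) and 0.26 for NDUFAF6 (adjusted p = 0.0554, edgeR).

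The log2 ratio of CCNE2 to CCNE1 was −2.05, −2.30 and −2.39 under shNT and −3.31, −3.29 and −3.15 under shPRKCN. The groups were apart by −1.004, a ratio of 0.499 times that in shNT (two-sided exact permutation p = 0.1, the smallest possible, adjusted p = 0.15 over 3 ratios, permutation test). CCNE1 accounted for 90.3% ± 1.08 of the E cyclin FPKM in shNT and 94.9% ± 0.303 in shPRKCN (SD, n = 3). The E cyclin sum, which CCNE1 dominates, was 13.6 ± 0.826 and 11.6 ± 1.21 FPKM, with overlapping libraries.

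Of the 2 inhibitors, CDKN1B was abundant and CDKN2C was near 0. CDKN1B had 298.5, 290.4 and 289.4 CPM under shNT and 242.5, 233.9 and 242.0 CPM under shPRKCN. The groups were apart, and CDKN1B fell by 0.29 (SE 0.034, 95% interval −0.36 to −0.22, adjusted p = 4.62e-11), to 81.8% of its shNT level and under the fold limit. It had the highest FPKM of the 10 genes in both groups. The level of p27 protein is set largely by its degradation and was not measured here.

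CDKN2C had 2, 1 and 0 counts under shNT and 1, 1 and 0 counts under shPRKCN. Its sums of 3 and 2 counts are at or under the floor, so no fold is given, and a difference was not detectable at this depth. Loss of CDKN2C on the short arm of chromosome 1 is a known lesion of myeloma, but DNA was not measured here. Its nearest neighbours among the protein-coding genes of the count table were looked at after the values were seen. Of these, FAF1 upstream held 32 to 61 counts per library, DMRTA2 and ELAVL4 held 0 to 1, and TTC39A downstream held 1 to 7. RNF11 and EPS15, the other downstream neighbours, were well expressed at 54.5 and 117 CPM on average in shNT. FAF1, which sits beside CDKN2C, was above the floor and was tested, but averaged only 1.14 CPM in shNT. TTC39A lies beyond RNF11. No extent is read from the low counts. Their cause was not tested.

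In order of FPKM the genes ran CDKN1B, CCND2, CDK4, CDK2, CDK6, CCNE1, CCND3, CCNE2, CCND1 and CDKN2C, and this order was the same in both groups. In shNT no neighbours in the order overlapped, from 121 ± 1.93 FPKM for CDKN1B and 111 ± 2.00 for CCND2 down to 0.803 ± 0.062 for CCND1 (SD, n = 3). In shPRKCN CDK6 and CCNE1, at 11.5 ± 0.295 and 11.0 ± 1.11 FPKM, overlapped. The balance between roles also differed, in quantities chosen after the values were seen and given without a test. D cyclin FPKM per FPKM of CDK4 and CDK6 was 1.61 ± 0.021 in shNT and 1.00 ± 0.036 in shPRKCN. CDKN1B FPKM per FPKM of CDK2 was 5.11 ± 0.106 and 7.22 ± 0.237, and E cyclin FPKM per FPKM of CDK2 was 0.575 ± 0.031 and 0.838 ± 0.066. Each of these kept the libraries of the groups apart. They compare transcripts and not proteins or complexes.

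**Figure D4:**
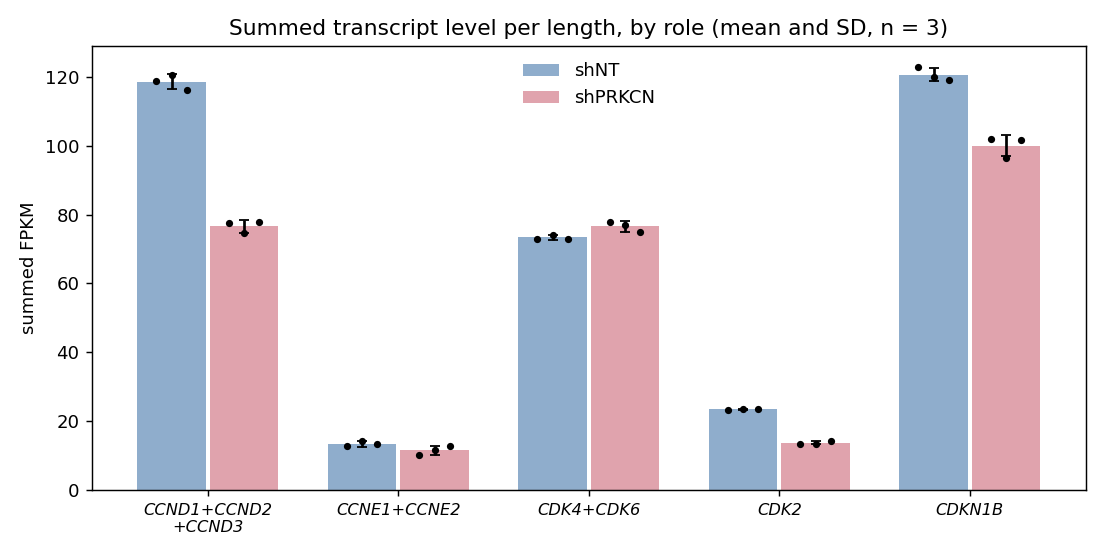
Summed FPKM by role in shNT (blue) and shPRKCN (red); bars start at 0 and give the mean with SD, and points are libraries. D cyclins go from 118 to 76.6 FPKM, CDK2 and CDKN1B are also lower, CDK4 plus CDK6 is slightly higher, and the E cyclin libraries overlap. FPKM is not TMM-scaled.

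Other genes of the G1 network were read from lists written for this purpose. Of all tested genes, 27.8% fell and 26.5% rose, and 10.6% fell and 6.15% rose past both limits. The counts in each list stand beside these shares, and no list was tested. Of 6 other CDK inhibitors, 4 were tested and all 4 fell, with a median log2 fold change of −1.05. The 3 past both limits were CDKN1A (p21), at −0.92, CDKN2D (p19, which like p18 binds CDK4 and CDK6), at −1.49, and CDKN3, a phosphatase that acts on CDK2, at −1.18. CDKN1C (p57) fell by 0.40, and the symbols CDKN2A and CDKN2B are absent from the count table. None of the tested inhibitors, CDKN1B included, was higher after PRKCN depletion.

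Among 6 activators of cyclin-dependent kinases, 3 fell and 0 rose, against 27.8% and 26.5% of all tested genes, and the median was −0.28. CDC25A, the phosphatase that activates CDK2, was the 1 past both limits, at −0.96, and CDC25B fell by 0.46. Of the CDK-activating kinase, MNAT1 fell by 0.43, whereas CDK7 was at 0.14 (adjusted p = 0.193 with edgeR). Of 12 genes of the ubiquitin ligases and proteases that act on G1 cyclins and p27, 4 fell and 5 rose, and the median was −0.0071. CKS1B, the cofactor with which SKP2 recognises p27, fell by 0.93 and USP2, a deubiquitinase of cyclin D1, rose by 1.16, from 1.53 to 3.43 CPM. SKP2 fell by 0.29, FBXW7, which targets cyclin E, fell by 0.36, and AMBRA1, which targets D cyclins, rose by 0.18.

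Of 10 RB and E2F family genes, 6 fell and 4 rose, against 27.8% and 26.5% of all tested genes, with a median of −0.18. RB1 fell by 0.77, E2F1 fell by 0.72 and E2F5, a repressor E2F, rose by 0.77, and these 3 passed both limits. Of the RB relatives, RBL1 (p107) fell by 0.47 and RBL2 (p130), the form associated with quiescent cells, rose by 0.32. Of 7 listed cyclins of S, G2 and M phase with CDK1, 6 were tested, 5 fell and 0 rose, with a median of −0.73. CCNA2, the cyclin that follows cyclin E on CDK2, was at −1.49, CDK1 at −1.09, CCNF at −0.74 and CCNB2 at −0.71, all past both limits, and CCNB1 was at −0.50. Of 25 tested cyclins and kinases with roles in transcription or other processes, 9 fell and 8 rose, against 27.8% and 26.5% of all tested genes, 0 passed both limits and the median was −0.02. Whether this list differs from the others was not tested.

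Of 15 proliferation markers all 15 fell, against 27.8% of all tested genes, with a median of −0.75. Past both limits were 12 of them, against 10.6% of all tested genes. MKI67, which encodes Ki-67, had a log2 fold change of −1.33 and RRM2, a subunit of ribonucleotide reductase, one of −1.96. The values of the DNA replication and nucleotide synthesis genes MCM4, MCM6, MCM7, PCNA and TYMS were −1.19, −0.74, −0.59, −0.75 and −0.95. Those of the mitotic genes TOP2A, BIRC5, PLK1, AURKA and AURKB were −1.04, −0.89, −0.66, −0.71 and −0.97. Their summed level was 3621 to 3693 CPM under shNT and 1837 to 1862 CPM under shPRKCN. CCND2, CCND3, CCNE2 and CDK2 thus fell in libraries in which transcripts of cycling cells were also lower, and the part of this shift in their values was not tested.

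Of 7 regulators known to act on D cyclin or CDKN1B transcription, 1 fell and 5 rose, against 27.8% and 26.5% of all tested genes. IRF4, the myeloma survival factor, fell by 1.85, from 624 ± 12.5 to 173 ± 3.19 CPM (SD, n = 3), the 1 past both limits. MAF had 1487 ± 47.8 CPM in shNT and 1691 ± 17.5 CPM in shPRKCN (SD, n = 3) and rose by 0.19 (adjusted p = 8.38e-07 with edgeR). FOXO3, a forkhead factor, rose by 0.33. These are levels of transcripts. The activity of the factors was not measured, and their part in the values of CCND2 and CDKN1B was not tested.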

How the data were processed

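Total RNA was extracted with Trizol, and libraries were sequenced by a company. The authors deposited raw counts per gene for the 6 libraries, with no normalization, and FPKM values per gene, which follow from the same counts, the library total and 1 length per gene. HISAT2, StringTie and FastQC are named in the submitters' processing notes, with build GRCh38.p14. The counting program, the annotation and the strandedness are not given in the sources used here, so reads of overlapping genes may be mixed.

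Groups were taken from the labels' treatment. Counts were filtered with filterByExpr, scaled with TMM, and the quasi-likelihood test of edgeR 4.0.16 in R 4.3.3 was run on 13971 of 21850 genes, with Benjamini-Hochberg adjustment over all of them. The limits on the adjusted p (0.05) and on the log2 fold change (0.58) were those of the study's methods, which used DESeq2. The standard error is the fold change divided by the square root of F, in absolute value. Ratios within a library used counts plus 0.5, and ratios and shares were compared with two-sided exact permutation tests (SciPy 1.17.1, Python 3.11.15). FPKM served for levels between genes. The steps were tested on simulated data.

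The 10 genes, the lists and the tests were chosen with earlier results of these data known. All 10 genes, PRKD3, overlapping genes, each list gene past both limits and at most 3 others per list were named. The exceptions, chosen after their values were seen, are the neighbours of CDKN2C, CD3E, the promoter windows of CDK4 and CDK6 with the motif searched there, and the sums and balances by role. Marker genes are named where the cell identity is checked. The alternatives tried were the test of DESeq2 1.42.0, other scalings (upper quartile, RLE or library size), no filter or at least 10 counts per library, a block for replicate number, leaving out each library, limma 3.58.1 after adding 1 or 0.1 to FPKM before the log2, a minimum FPKM of 1 in 3 libraries, no fold limit and glmTreat, and for ratios and shares a pseudocount of 1 and CPM. Promoters were read from RefSeq (GRCh38.p14).

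No library repeated another: over genes, chi-square divided by its degrees of freedom was 3.38 to 4.8 for pairs within a group and 63.8 to 70.2 for pairs across groups. The median of all tested genes was 0.0012 with TMM, 0.0036 with RLE, 0.0091 with upper-quartile and 0.021 with library-size scaling. Depth was alike in all libraries, and counts of 3 or fewer were not interpreted.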

Additional observations from a re-analysis of the deposited data

How the results depend on the processing

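Among the alternatives, 13 counts moved by over 1.5 times, 7 values no longer passed both limits and 4 passed once the fold limit was dropped, and the fitted change of none of the 9 tested G1 genes turned its direction. The adjusted p of CCNE1 ran from 0.0164 to 0.35 over those other than glmTreat. Over all genes, 317 were called higher and 651 lower with limma on log2(FPKM + 1), 310 and 635 with the FPKM minimum, 3700 and 3877 with no fold limit and 339 and 821 with glmTreat. The 5 called decreases among the 10 genes became 2 with limma on log2(FPKM + 1), with or without the minimum, 3 with glmTreat and 8 with no fold limit, which also gave 1 increase. On log2(FPKM + 1) CCND1 was at −0.39, CCND3 at −0.54 (with or without the minimum) and CCNE2 at −0.54 (with or without the minimum), all inside the fold limit, and with the minimum CCND1 was not tested. Adding 1 shrinks the fold of low genes. Against 0.58, glmTreat did not call CCND2 (−0.65) or CCND3 (−0.65). With no fold limit CCNE1 (−0.17), CDK4 (0.17), CDK6 (−0.52) and CDKN1B (−0.29) passed.

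Leaving out 1 library at a time gave 815 to 874 genes higher and 1437 to 1487 lower, and 5 of the 10 genes called lower each time. PRKD3 ran from −1.31 to −1.25, CCND1 from −1.27 to −0.98, CCND2 from −0.66 to −0.63, CCND3 from −0.68 to −0.60, CCNE1 from −0.23 to −0.09, CCNE2 from −1.28 to −1.06, CDK2 from −0.80 to −0.77, CDK4 from 0.15 to 0.20, CDK6 from −0.57 to −0.49 and CDKN1B from −0.30 to −0.27.

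Leaving out 1 library turned the sign of 3 differences that are smaller than the spread between libraries: log2 CCND2/CCND3 ran from −0.0578 to 0.0536, the CCND2 share from −0.0934 to 0.356 points and the CCND3 share from −0.1883 to 0.2345 points.

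Libraries with the same replicate number showed no shared deviation (correlations −0.0593 to −0.0156), which does not settle whether the numbers pair them. With the replicate number as a block, 854 genes were called higher and 1463 lower, 5 of the 10 genes were called lower, and no other call changed. For the ratios, the smallest p that sign flips of 3 pairs allow is 0.25. Depth limits CDKN2C, at 0 to 2 counts per library, and widens the intervals of CCND1 and CCNE2.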

Other observations

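Outside the G1 network, 1 marker of another cell type stood out. CD3E, a subunit of the T cell receptor complex, had 393, 379 and 419 counts under shNT and 1068, 1150 and 1021 counts under shPRKCN. Every shPRKCN library was higher, and the log2 fold change was 1.40 (SE 0.076, adjusted p = 7.45e-26 with edgeR). The other subunits on the list, CD3D and CD3G, had 0 counts in every shPRKCN library and at most 1 count in any shNT library. CD3E was singled out after its values were seen.

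Of the 8 plasma cell markers, 6 fell and 1 rose, against 27.8% and 26.5% of all tested genes, and 1 did not pass the test. IRF4, XBP1, TNFRSF17 (BCMA) and SLAMF7 fell past both limits, with log2 fold changes of −1.85, −1.28, −1.13 and −0.97, while SDC1 rose by 0.18. Their summed level was 3862 to 3927 CPM under shNT and 2527 to 2620 CPM under shPRKCN.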
